A study of Mus musculus with 12 samples.

Results

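Transcripts of 8 cytokine genes were followed in cultured macrophages: Il1a, Il1b, Il18, Tnf, Il6 and Osm, whose products are mainly inflammatory, and Il1rn and Il10, whose products restrain inflammation. They were the 8 rows of a table of 18376 genes that carried these symbols, and each symbol was found. The cells were bone marrow-derived macrophages (BMDMs), grown from marrow progenitors of adult male wild-type (WT) C57BL6/J mice, and every culture received 50 ng/ml of recombinant mouse macrophage colony-stimulating factor (M-CSF). CTRL cultures received nothing else. Act cultures received 50 ng/ml of recombinant human activin A, FST cultures 250 ng/ml of FST288, and Act+FST cultures both, for 6 days, with 3 libraries in each of the 4 groups. FST288 is a form of follistatin, a protein that binds activin A and blocks it, and the study used it as the antagonist. The comparisons asked what activin A did to these transcripts and what it did when FST288 was present. Whether replicates came from separate cultures or animals was not given in the sources used here, so the p-values measure the spread between these libraries, which may be technical.

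Interleukin-1 alpha and interleukin-1 beta are made by macrophages as precursors and signal through one receptor, which the interleukin-1 receptor antagonist (the product of Il1rn) occupies without signalling. Interleukin-18 is a relative of interleukin-1 beta that is cut by the same protease, caspase-1. Tumour necrosis factor (Tnf) is shed from the cell surface, interleukin-6 and oncostatin M (Osm) signal through the shared subunit gp130, and interleukin-10 suppresses the production of inflammatory cytokines by macrophages. Activin A is a ligand of the transforming growth factor beta family and signals through SMAD proteins.

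Every level given is a normalized count, that is, the count of a gene after scaling of its library, and the libraries summed to between 5643708 and 5955400. The original read depth was not given, so no counting interval was computed. The macrophage markers tested (7 of 7 listed, among them Csf1r, Adgre1 and Cd68) summed to between 10699 and 11646 in CTRL and between 10836 and 11423 in Act, and none of the 7 was at 0 throughout. Of the 14318 genes that reached a mean of 5, 20.2% passed an adjusted p of at most 0.05 (limma, Benjamini-Hochberg over these genes) between Act and CTRL, and 31.5% when the replicate number was also in the model. With 1 sample of RNA from all cells of a culture, fewer cells of a type and less RNA per cell cannot be told apart.

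The promoters of the inflammatory members that rose with activin A and had an entry in the RefSeq promoter table (build GRCm38.p6) are shown with 2 of the 3 starts listed for the antagonist gene (the third overlaps the second), because the agonists of interleukin-1 passed the test below and the antagonist did not. Each sequence is the 250 bases upstream of an annotated start, read 5′ to 3′ on the gene's own strand. Il1a is on the minus strand at chr2:129309973-129310222, Il1b on the minus strand at chr2:129371140-129371389 and Tnf on the minus strand at chr17:35202008-35202257. The Il1rn starts are on the plus strand, at chr2:24336610-24336859 and chr2:24345041-24345290. Capitals mark matches, on either strand, to 4 motifs. The TATA box was searched as TATAAA, the AP-1 element as TGANTCA, the SMAD-binding element as CAGAC and the PU.1 core as GAGGAA.
Il1a promoter: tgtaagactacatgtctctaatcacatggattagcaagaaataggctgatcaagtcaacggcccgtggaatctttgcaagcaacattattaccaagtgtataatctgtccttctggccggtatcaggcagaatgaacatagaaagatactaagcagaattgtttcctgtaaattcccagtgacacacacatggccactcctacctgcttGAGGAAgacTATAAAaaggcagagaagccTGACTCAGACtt
Il1b promoter: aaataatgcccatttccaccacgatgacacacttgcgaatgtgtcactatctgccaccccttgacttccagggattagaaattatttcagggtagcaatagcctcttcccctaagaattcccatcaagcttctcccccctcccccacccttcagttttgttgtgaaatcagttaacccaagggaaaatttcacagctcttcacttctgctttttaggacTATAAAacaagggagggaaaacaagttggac
Tnf promoter: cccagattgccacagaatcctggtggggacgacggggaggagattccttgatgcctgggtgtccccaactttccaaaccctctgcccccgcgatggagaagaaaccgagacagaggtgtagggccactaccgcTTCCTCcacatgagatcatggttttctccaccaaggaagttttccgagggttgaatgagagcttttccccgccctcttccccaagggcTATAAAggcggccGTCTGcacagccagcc
Il1rn promoter, first start: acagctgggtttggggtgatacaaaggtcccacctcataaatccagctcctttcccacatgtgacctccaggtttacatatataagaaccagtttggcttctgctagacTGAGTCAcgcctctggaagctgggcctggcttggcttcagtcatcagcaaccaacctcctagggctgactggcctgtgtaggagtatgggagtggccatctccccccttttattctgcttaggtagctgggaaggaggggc
Il1rn promoter, second start: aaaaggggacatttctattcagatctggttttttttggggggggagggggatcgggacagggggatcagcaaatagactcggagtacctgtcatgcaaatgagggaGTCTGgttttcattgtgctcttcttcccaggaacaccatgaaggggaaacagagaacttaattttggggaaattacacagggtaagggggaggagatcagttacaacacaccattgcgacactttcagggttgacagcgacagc

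A TATA box began 32 bases before the start of Il1a, 31 before that of Il1b and 29 before that of Tnf, and neither Il1rn sequence held one. The entry of Il18, a gene that did not pass the test, held a match on the opposite strand, 175 bases before the start. This motif was present in 12.4% of the 32851 promoters of the table. The Il1a sequence also held the AP-1 element, at 12 bases before the start, which overlaps the SMAD-binding element at 7 bases. The AP-1 element was present in 6.75% of promoters, the SMAD-binding element in 42.2%, and the PU.1 core in 23.3%. In Il1rn, the AP-1 element lay 141 bases before the first start and the SMAD-binding element 144 bases before the second. In Tnf the SMAD-binding element lay 16 bases before the start. The PU.1 core was found in the Il1a sequence, at 41 bases before the start, and in the Tnf sequence, at 117 bases. These matches are descriptions of letters, not binding sites. Of the 8 members, 6 had an entry, and Osm and Il10 did not.

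Activin A changed most of the cytokine genes that could be tested. Compared with CTRL, Il1b, Il1a, Tnf and Osm rose and Il10 fell, while Il1rn and Il18 did not pass the test. In count, 4 of the 7 tested members rose, against 10.3% of all genes tested, and 1 fell, against 9.97%. Differentially expressed genes (DEGs), which also required a fold change of at least 2, were Il1b and Il10, and 5.66% of all genes were DEGs. The same 5 members that passed the test had groups that did not overlap, which was so for 35.7% of all genes. The median log2 fold change of the 7 members was 0.55, beside 0.00 for all genes. Il6 was the only member below the minimum mean and was not tested.

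**Figure D1:**
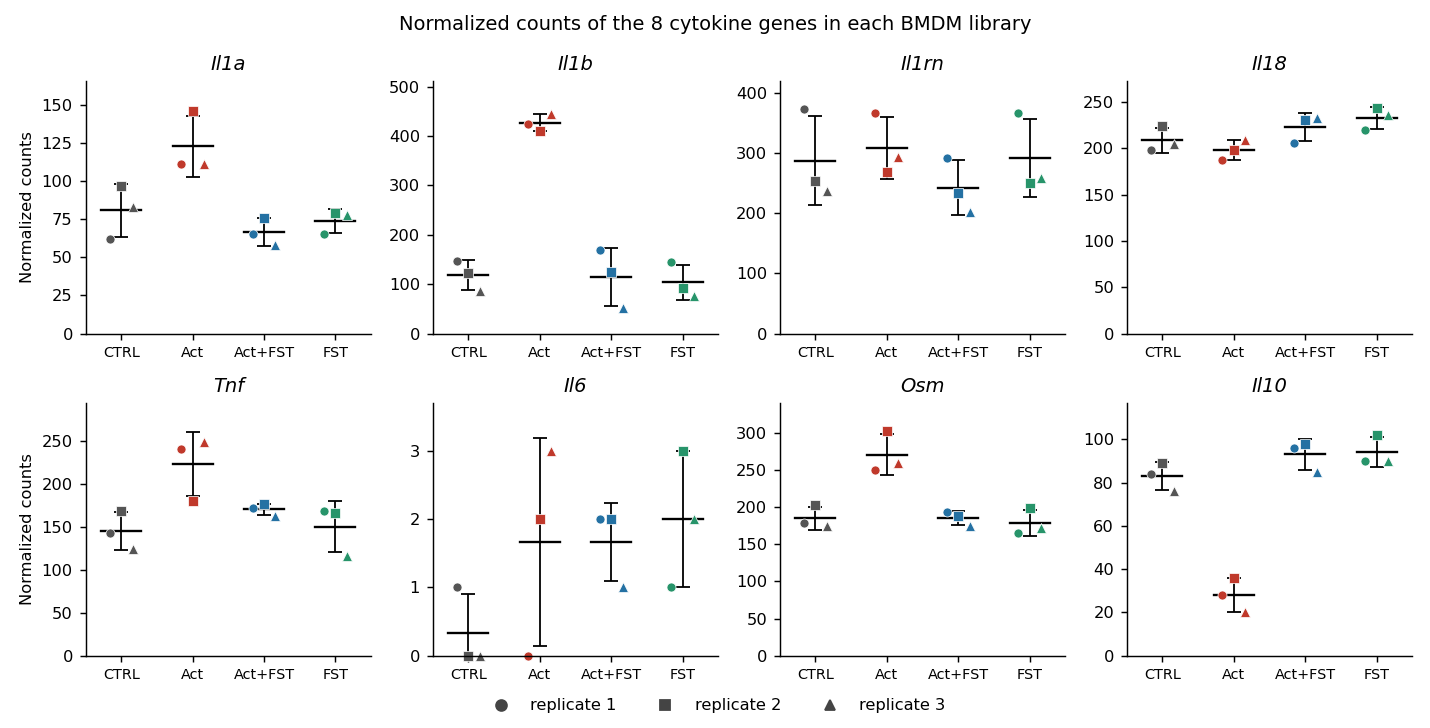
Normalized counts (vertical axes, linear, each with its own scale) of the 8 cytokine genes by treatment group (horizontal axes). Points are single libraries, with the shape giving the replicate number, horizontal bars are group means and error bars are SD (n = 3). Il1b in Act lies between 410 and 445, above the 52 to 169 of the other groups, and Il10 in Act lies between 20 and 36, below the 76 to 102 of the other groups.

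Il1b showed the largest increase among the members. CTRL replicates 1, 2 and 3 held 147, 122 and 86 of its normalized counts, and the Act libraries held 425, 410 and 445. Every Act library was well above every library of the other groups, and the Act libraries were close to one another, with a mean of 427 ± 17.6 (SD, n = 3). The log2 fold change was 1.87 (SE 0.36), or 3.67-fold, with an adjusted p of 0.0026 by limma. The gene lies at chr2:129364570-129371139. It shares 25 exonic bases (1.31% of its exon length) with Il1bos on the opposite strand, which was listed at 0 to 4 normalized counts.

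Il1a, which encodes the other interleukin-1 agonist, rose by less. Its values were 62, 97 and 83 in CTRL and 111, 146 and 111 in Act. The lowest Act library was above the highest CTRL library, although replicate 2 was the highest in both groups. The log2 fold change was 0.61 (SE 0.18), or 1.53-fold, with an adjusted p of 0.028 by limma. This call rested on single libraries: the adjusted p rose to as much as 0.12 when libraries were left out, and the call was lost without CTRL replicate 1, CTRL replicate 3 or Act replicate 2. With the replicate number also in the model and all libraries kept, the adjusted p was 0.0019 by limma. Il1a shares 222 exonic bases (11.2%) with Gm14023 on the opposite strand, and the strand setting of the counting was not given in the sources used here. Gm14023 was at 28, 44 and 32 in CTRL and 19, 21 and 24 in Act, and its part in the Il1a values was not tested.

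Il1rn, the antagonist, did not pass the test. Its values were 373, 253 and 237 in CTRL and 367, 268 and 293 in Act. The groups overlapped almost fully, and replicate 1 was the highest library in both. The log2 fold change was 0.12 with a 95% interval of −0.31 to 0.55 (adjusted p = 0.74 by limma), so a change of the size seen for Il1b lay outside the interval. The changes of Il1a (0.610) and Tnf (0.612) lay just outside its upper end of 0.549, and that of Osm (0.545) lay inside. In all 4 groups replicate 1 was above its group mean for Il1rn and replicates 2 and 3 were below it.

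The balance of antagonist to agonist transcripts followed from these values. The ratio of Il1rn to Il1b normalized counts was 2.54, 2.07 and 2.76 in CTRL and 0.864, 0.654 and 0.658 in Act. Antagonist counts were thus above agonist counts in every CTRL library and below them in every Act library. The ratio was 1.73, 1.89 and 3.88 in Act+FST and 2.55, 2.73 and 3.41 in FST, where antagonist counts were again the higher in every library. On the log2(value + 1) scale, Act was lower than CTRL by a difference of −1.75 and lower than Act+FST by a difference of −1.69. Each gave p = 0.1 by a two-sided exact permutation test, the smallest p that 3 against 3 libraries allow, and 0.25 after adjustment over the 5 comparisons made. The other 3 comparisons had exact p from 0.4 to 0.9. A ratio within a library carries the genes' lengths, so its crossing of 1 has no meaning as a molar balance.

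**Figure D2:**
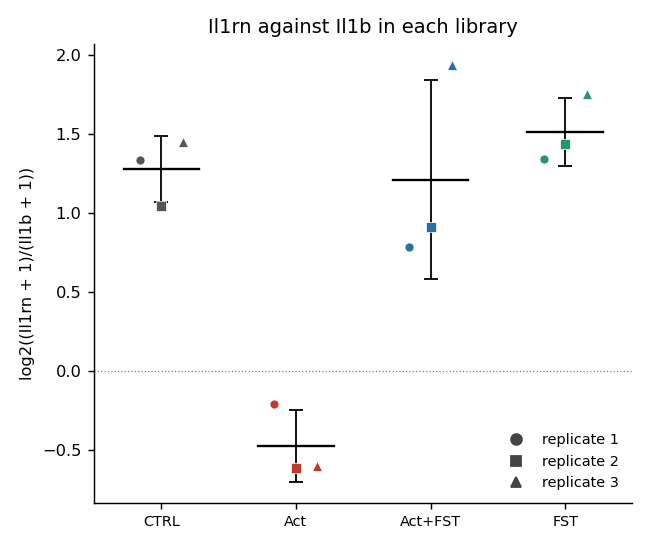
Log2 ratio of Il1rn to Il1b, each with 1 added (vertical axis), in each library by group (horizontal axis). Points are libraries, bars are means and error bars are SD (n = 3). The Act mean is −0.47 and the CTRL, Act+FST and FST means are 1.28, 1.21 and 1.51, and the 3 Act libraries lie below all others.

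Il18 had nearly constant values. It was at 198, 224 and 204 in CTRL, 187, 198 and 209 in Act, 206, 230 and 233 in Act+FST, and 220, 243 and 236 in FST. The Act and CTRL values overlapped, with a log2 fold change of −0.07 and a 95% interval of −0.24 to 0.09 (adjusted p = 0.56 by limma).

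Tnf rose 1.53-fold with activin A. Its values were 143, 168 and 124 in CTRL and 240, 180 and 248 in Act. The second Act library lay just above the highest CTRL library and far below the other Act libraries. The log2 fold change was 0.61 (SE 0.16) with an adjusted p of 0.017 by limma. The call was lost without CTRL replicate 3, Act replicate 1 or Act replicate 3, with an adjusted p of up to 0.075. With all libraries kept and the replicate number in the model, the adjusted p was 0.0043 by limma.

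Of the cytokines that signal through gp130, Osm rose and Il6 was barely detected. Osm was at 178, 203 and 174 in CTRL and 250, 302 and 260 in Act. Every Act library was above every library of the other groups, and the log2 fold change was 0.55 (SE 0.09), or 1.46-fold, with an adjusted p of 0.0015 by limma. Il6 was at 1, 0 and 0 in CTRL, 0, 2 and 3 in Act, 2, 2 and 1 in Act+FST, and 1, 3 and 2 in FST. With at most 3 normalized counts in any library, no difference in Il6 was detectable.

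Il10 was the member that fell. Its values were 84, 89 and 76 in CTRL and 28, 36 and 20 in Act. The highest Act library was below the lowest library of each other group. The log2 fold change was −1.57 (SE 0.18), which is 2.97-fold lower, with an adjusted p of 6.3e-05 by limma, the lowest among the members. Il10 lies at chr1:131019845-131024974 and shares no annotated exonic bases with another gene. For each of Il1a, Il1b, Tnf and Osm the Act library was higher than the CTRL library of the same number in 3 of 3 pairs, and for Il10 it was lower in 3 of 3.

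**Figure D3:**
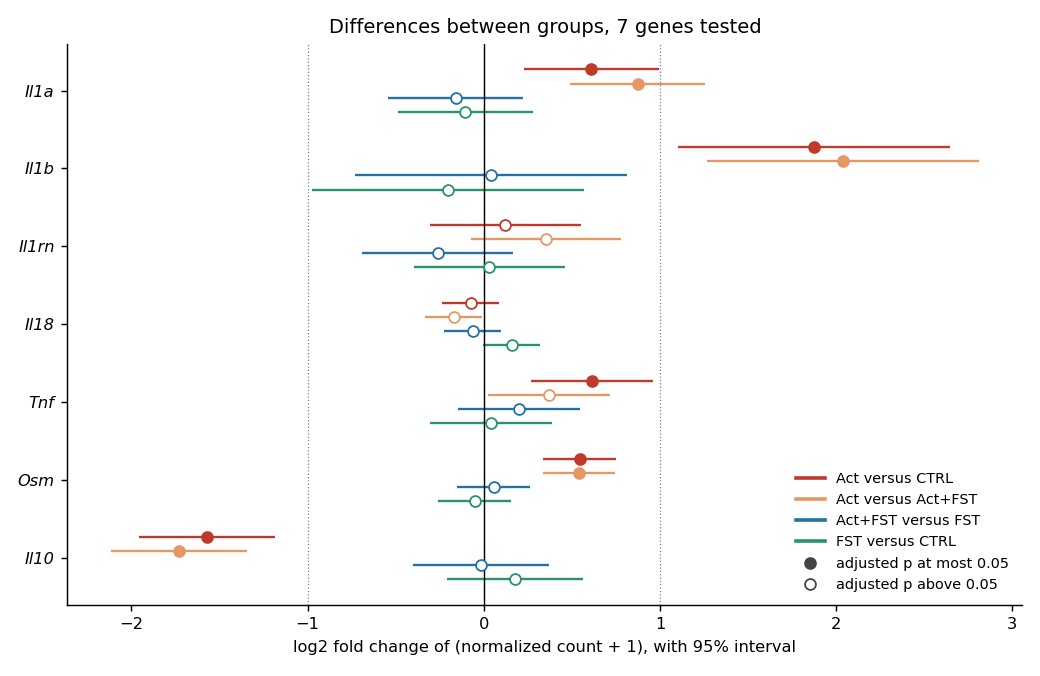
Log2 fold changes of (normalized count + 1) on the horizontal axis for the 7 members tested (vertical axis) in 4 comparisons, shown by colour. Lines are 95% intervals, filled points passed an adjusted p of at most 0.05, and dotted lines mark a fold change of 2. Filled points appear only in the comparisons of Act with CTRL and with Act+FST, from −1.73 for Il10 to 2.04 for Il1b.

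The same genes were then compared between activin A alone and activin A with FST288. Il1b, Il1a and Osm were higher and Il10 was lower in Act than in Act+FST, making 3 of 7 tested members higher, against 11.1% of all genes, and 1 lower, against 10.2%. Il1b and Il10 were the members that were DEGs, and 5.82% of all genes were DEGs. These 4 and Tnf were the 5 members whose groups did not overlap, which was so for 34.1% of all genes. This comparison and the one above share the Act libraries, so they are not independent.

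Il1b was at 169, 124 and 52 in Act+FST, well below the Act libraries and with a wide spread around the range of CTRL. The log2 fold change of Act over Act+FST was 2.04 (SE 0.36), or 4.11-fold, with an adjusted p of 0.0014 by limma. Il10 was at 96, 98 and 85 in Act+FST, so that all 3 libraries were above those of Act. Its log2 fold change was −1.73 (SE 0.18), with an adjusted p of 2.9e-05 by limma.

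Il1a was at 65, 76 and 58 in Act+FST, with each library below the lowest Act value, and the log2 fold change was 0.87 (SE 0.18; adjusted p = 0.0036 by limma). Osm was at 193, 188 and 175 in Act+FST, again below each Act library, and the log2 fold change was 0.54 (SE 0.09; adjusted p = 0.0015 by limma). These 4 calls were kept in each of the 6 fits that left out 1 of the libraries compared.

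Tnf was at 172, 176 and 163 in Act+FST, close together and just below the lowest Act library. Its log2 fold change of 0.37 did not pass (95% interval 0.02 to 0.72; adjusted p = 0.13 by limma), except without Act replicate 2, where the adjusted p was 0.048. Il1rn was at 292, 234 and 202 in Act+FST and overlapped with Act. Its log2 fold change of 0.35 did not pass (adjusted p = 0.24 by limma), but it did with the replicate number as a block (adjusted p = 0.0011), and Act was the higher library in 3 of 3 pairs. For Il18 the log2 fold change was −0.17, with an adjusted p of 0.13 by limma and of 0.037 with the block. The block thus raised the number of members that passed from 4 to 6, and it raised the share of all genes from 21.3% to 32.6%.

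When FST288 was present, activin A gave no detected change in these genes. Between Act+FST and FST, 0 of the 7 tested members passed by limma, as did 0 of all genes (0%), and 0 members but 3.51% of genes had an unadjusted p under 0.05. The log2 fold changes of the members ran from −0.26 for Il1rn to 0.20 for Tnf. For Il10 the difference was −0.02, with a 95% interval of −0.40 to 0.37, and for Il1b it was 0.04, with an interval of −0.73 to 0.81. Il1b varied widely within both groups and was at 144, 92 and 76 in FST.

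FST288 with activin A, compared with CTRL, gave 0 of 7 members and 0% of all genes, with 0 members and 4.57% of genes at an unadjusted p under 0.05. The members' log2 fold changes ran from −0.26 for Il1a to 0.24 for Tnf. FST288 alone compared with CTRL gave 0 of 7 members and 0% of all genes as well, with 0 members and 2.09% of genes at an unadjusted p under 0.05. There the members ran from −0.20 for Il1b to 0.18 for Il10. With the block, 0 members passed in any of these 3 comparisons, while 31 genes (0.217%), 80 genes (0.559%) and 0 genes (0%) did, in the order given. At an unadjusted p under 0.05 the block gave 1 member in each. Il1rn was lower in Act+FST than in FST (−0.26, 95% interval with the block −0.41 to −0.12) and than in CTRL (−0.23, −0.38 to −0.09), in 3 of 3 pairs each, with adjusted p of 0.18 and 0.17 by limma. Il18 was higher in FST than in CTRL (0.16, 0.03 to 0.28) in 3 of 3 pairs, with an adjusted p of 0.89.

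In FST the remaining members stood near their CTRL values: Il1a was at 65, 79 and 78, Il1rn at 367, 251 and 259, Tnf at 168, 166 and 116 and Osm at 165, 199 and 172. Il10 was at 90, 102 and 90, each just above the highest CTRL library of 89. Among all genes, 2.93% were higher in FST than in CTRL without overlap.

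The difference between the activin A effect without and with FST288 was tested as an interaction, (Act − CTRL) − (Act+FST − FST). Il10 (−1.55, SE 0.25; adjusted p = 0.0030), Il1b (1.84, SE 0.50; adjusted p = 0.048) and Osm (0.49, SE 0.13; adjusted p = 0.049) passed by limma, so 3 of 7 tested members passed against 6.74% of all genes (16.3% with the block). Il1b and Il10 were also DEGs of this test, beside 2.65% of all genes. Il10 passed in each of 12 fits that left out 1 library. Il1b passed in 4 of these and Osm in 1, with adjusted p of up to 0.12 for both. With the block and all 12 libraries, the adjusted p by limma was 0.0011 for Il1b and 0.0029 for Osm. Il1a, at 0.77, had an adjusted p of 0.091 by limma and of 0.0084 with the block. Il1rn, at 0.38, had 0.51 and 0.014. Tnf, at 0.41, and Il18, at −0.01, did not pass in either fit.

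Levels were compared between genes per kilobase of annotated exon. In CTRL, Il18 was the highest at 202 ± 13.2 normalized counts per kb (SD, n = 3) and did not overlap with the next gene. Tnf (88.5 ± 13.5) and Osm (81.4 ± 6.92) followed and overlapped with each other. Il10 (63.4 ± 5.01), Il1b (62.1 ± 16.1), Il1rn (52.0 ± 13.4) and Il1a (40.9 ± 8.92) came next, and each of these overlapped with its neighbour in the order. Osm did not overlap with Il10, but the highest Il1b library (77.1) was above the lowest Osm library (76.6).

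In Act the order was different. Il1b was at 224 ± 9.21 per kb and stood above Il18, at 192 ± 10.7, with no overlap of their libraries. Tnf (136 ± 22.7) and Osm (119 ± 12.1) overlapped, as did Il1a (62.1 ± 10.2) and Il1rn (55.9 ± 9.30), and Il10 was the lowest tested member at 21.4 ± 6.11. In Act+FST and FST, Il18 was again the highest, at 216 ± 14.4 and 226 ± 11.4, and Il10 was at 71.0 ± 5.34 and 71.8 ± 5.29. The length used is the union of all annotated exons of a gene, so the level of Il1rn, with 5535 such bases, is understated where the transcripts present are shorter.

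**Figure D4:**
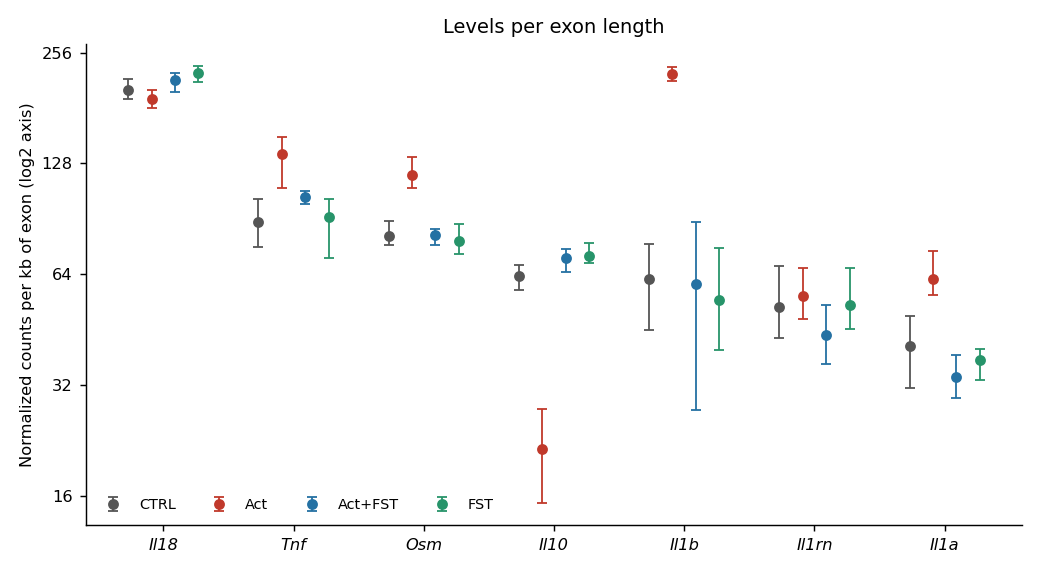
Mean normalized counts per kilobase of annotated exon (vertical axis, log2 scale) of the 7 members tested, in the order of their CTRL means (horizontal axis), with colours for the 4 groups and bars from the lowest to the highest of 3 libraries. In Act, Il1b lies at 224 and Il10 at 21.4, and in CTRL they lie at 62.1 and 63.4.

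Other genes of these pathways were taken from 6 lists and compared between Act and CTRL, where 10.3% of all genes tested rose and 9.97% fell (31.5% in either direction with the block). In the list of 15 tested receptors and decoys, 2 rose and 3 fell, the share that rose being near that of all genes (4 and 3 with the block; median log2 fold change −0.08, beside 0.00 for all genes). Il1rl2, the receptor of the interleukin-36 cytokines, rose by 1.22 on the log2 scale (adjusted p = 2.4e-06 by limma), from 156 ± 12.7 to 364 ± 9.17 normalized counts (SD, n = 3). Il1r2, the decoy receptor that captures interleukin-1 without signalling, was at 24, 38 and 28 in CTRL and 14, 18 and 11 in Act. It fell by 1.02 (adjusted p = 0.035), and the Act+FST libraries, at 32, 29 and 14, overlapped with those of Act. Il18bp, the soluble inhibitor of interleukin-18, rose by 0.39 (adjusted p = 0.012), and Il6st, which encodes gp130, fell by 0.40 (adjusted p = 0.0096).

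Of 16 tested genes of processing and release, 5 rose and 1 fell (6 and 2 with the block). Rhbdf1 and Rhbdf2, adaptors of the protease that sheds Tnf, rose by 0.60 (adjusted p = 0.0023 by limma) and 0.32 (adjusted p = 0.0017). Nlrc4, an inflammasome sensor, rose by 0.32 (adjusted p = 0.0043), and Capn2, a subunit of a calpain of the kind that cuts the interleukin-1 alpha precursor, fell by 0.43 (adjusted p = 0.00018). Casp1, which encodes caspase-1, did not pass, with a log2 fold change of −0.11 (adjusted p = 0.13).

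Of 23 tested genes of receptor signalling, 8 rose and 1 fell (10 and 2 with the block). Socs3, an inhibitor of signalling through gp130, was at 116, 131 and 99 in CTRL and at 243, 245 and 282 in Act. It rose by 1.15 on the log2 scale (adjusted p = 0.00034 by limma). Irak2, a kinase of the interleukin-1 and Toll-like receptor pathway, rose by 0.64 (adjusted p = 0.00015), and Traf2, an adaptor of Tnf receptors, rose by 0.26.

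In the list of 18 NF-kappaB subunits and inhibitors, 8 rose and 0 fell (12 and 0 with the block), with a median log2 fold change of 0.23. Among those that passed, the 4 with the largest changes were inhibitors or nuclear relatives of inhibitors: Nfkbie (0.54), Nfkbid (0.45), Nfkbiz (0.44) and Nfkbia (0.39), with adjusted p from 0.0011 to 0.017 by limma. Of 11 tested genes of cytokine mRNA decay, 2 rose, Zc3h12a by 0.22 and Hnrnpd by 0.18, and 0 fell (4 and 1 with the block). In the list of other interleukin-1 family and inflammatory cytokines, 14 of 26 were in the table, 12 were tested, 1 rose and 2 fell (2 and 2 with the block). Tnfsf13b, the B cell survival factor, rose by 0.87 (adjusted p = 0.0041), and Ebi3 and Il15 fell by 0.23 and 0.18.

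In these 6 lists, 0 genes passed between Act+FST and CTRL or between FST and CTRL, as did 0% of all genes tested, so these counts are not particular to the lists. For Socs3 the Act+FST libraries were at 155, 155 and 109, with a log2 fold change from CTRL of 0.26, and for Il1rl2 they were at 159, 140 and 167, with one of 0.00.

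**Figure D5:**
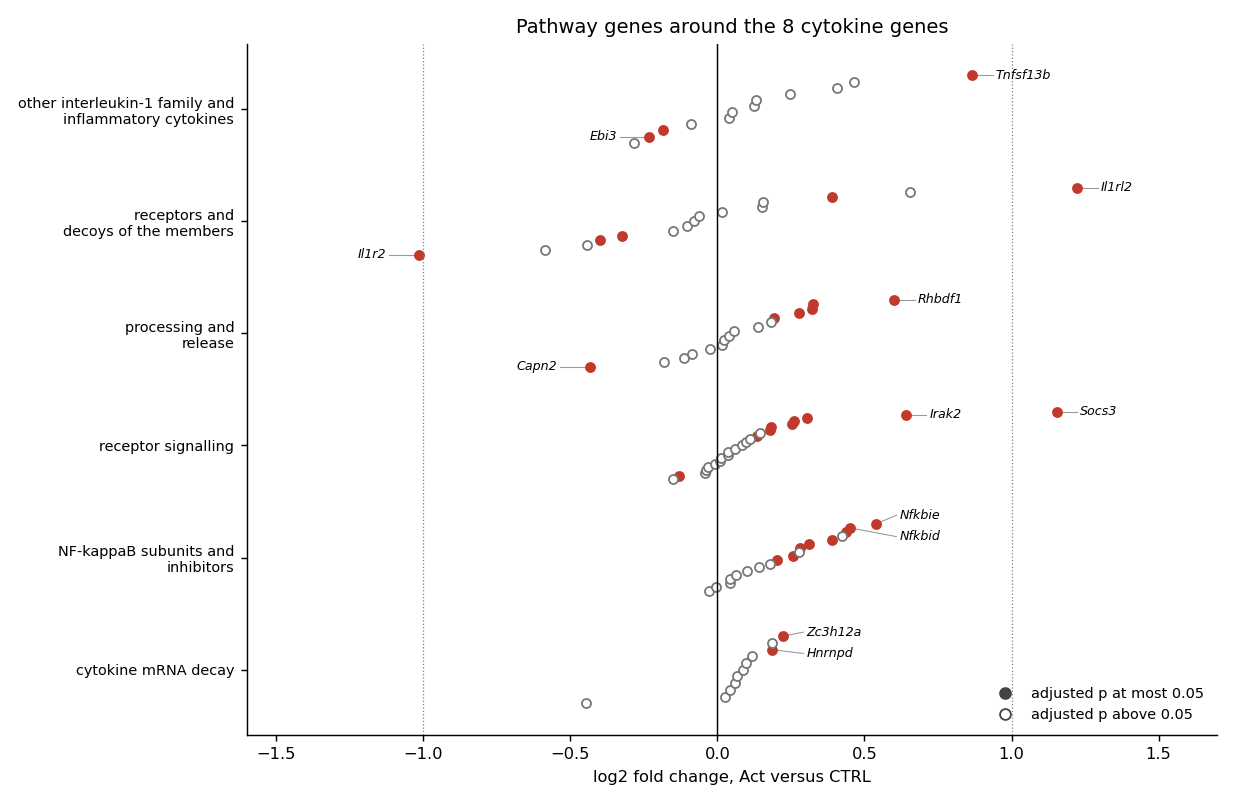
Log2 fold changes between Act and CTRL (horizontal axis) of every tested gene in the 6 pathway lists (vertical axis, genes of a list stacked by value). Filled points passed an adjusted p of at most 0.05, open points did not, dotted lines mark a fold change of 2, and up to 2 genes of a list are labelled. Il1rl2 (1.22) and Socs3 (1.15) lie farthest to the right and Il1r2 (−1.02) farthest to the left.

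Some genes had profiles over the 12 libraries close to those of the members that passed. For Il1b these were Pde4b, Prdm1 and Mefv (Pearson r of log2 values 0.99, 0.98 and 0.98), and for Il10 they were Rgl1, Mmp27 and Tslp (1.00, 0.99 and 0.99). For Il1a they were Map3k15, Rffl and Prr14 (0.98, 0.96 and 0.95), for Tnf Icam1, Ube2f and Pilra (0.97, 0.93 and 0.92), and for Osm Rbpms, Kcnj9 and Cebpg (0.97, 0.96 and 0.96). They were the 3 highest of 10627 genes with a mean of at least 50 for each member. The libraries are shared and fall into treatment groups, so these values describe likeness and carry no test.

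Among the members, Il1a and Osm had r = 0.90 over the 12 libraries and r = 0.72 within groups. Values within groups were larger for Il1b and Il1rn (0.57 over all and 0.75 within groups) and, in the opposite direction, for Il1rn and Il18 (−0.61 and −0.78). Il1b and Il10 had r = −0.85 over all and r = 0.18 within groups, so the opposite course of that pair was between groups. Same-numbered libraries deviated together, so the values within groups also hold differences between replicate numbers and carry no test. Replicate 1 was above its group mean in 4 groups for Il1rn, 3 for Il1b and 0 for Il18. For both Il1a and Osm, replicate 2 was above it in 4 groups.

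Markers of other blood cells were examined for the same libraries. The 6 markers of classical monocytes, cells that also make interleukin-1 beta, summed to between 1203 and 1709 normalized counts in CTRL, 1747 and 2111 in Act, 1241 and 1938 in Act+FST, and 1082 and 1654 in FST. The Act sums were thus above the CTRL sums without overlap, although 0 of the 6 passed by limma (1 was higher and 2 were lower with the block). The 10 neutrophil markers summed to between 1308 and 1751 in CTRL and 1083 and 1759 in Act, and 2 fell, Mpo (log2 fold change −2.01) and Elane (−1.64), which encode granule proteins of early neutrophils. Of 5 tested dendritic cell markers 1 fell, Cd209a (−2.27). Of 4 tested stromal markers 1 fell, Cxcl12 (−1.06), and the 1 tested mast cell or basophil marker, Kit, fell as well (−1.23). Among all genes tested, 9.97% fell. The sums of dendritic cell markers overlapped, at 93 to 198 in CTRL and 118 to 201 in Act, as did those of mast cell or basophil markers, at 37 to 66 and 12 to 41.

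With the block, 1 neutrophil, 2 dendritic cell and 2 stromal markers were higher. They were Cxcr2 (log2 fold change 0.55), Flt3 (1.25) and Siglech (0.67), and Col1a2 (2.76) and Postn (2.07). Among all genes, 31.5% passed in either direction with the block. Stromal markers reached 250 in Act replicate 1, beside 32 and 42 in the other Act libraries. Replicate 1 also held the highest stromal sum of each remaining group: 153 for FST, 143 for Act+FST and 82 for CTRL. The number of members that passed between Act and CTRL was 4 without Act replicate 1. The sums of B cell markers ran from 84 to 117 over CTRL and Act, with 0 of 3 passing, and those of T or NK cell markers from 6 to 10 in CTRL and 12 to 13 in Act, with the 1 tested not passing. The part of these cells in the changes of Il1b, Il10 and the other members was not tested.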

How the data were processed

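RNA from 12 BMDM libraries was sequenced by the authors as single-end reads of polyadenylated RNA, after a stranded library kit. They trimmed reads with Trimmomatic 0.39, aligned them with STAR 2.7.9a to mm10, counted reads per gene with featureCounts 2.0.2 (reads that matched more than 1 gene or position were excluded) and used DESeq2 1.30.0. The authors deposited normalized counts, a non-negative signal in which each library was scaled by its own single factor, with values rounded to whole numbers. The scaling formula and the strand setting of counting were not given in the sources used here, and whole reads could not be recovered, so no count model was used.

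Members were the rows with the 8 symbols. Of 18376 genes, the 14318 with a mean of at least 5 were tested as log2(normalized count + 1) in limma 3.58.1 (R 4.3.3, empirical Bayes with a trend), with 4 group means over 12 libraries, so that all groups share 1 estimate of the spread. P-values were Benjamini-Hochberg adjusted over all genes tested, a gene passed at 0.05 or less, and a DEG also needed a fold of at least 2. A pseudocount of 1 understates the fold of low genes. Ratios were compared with two-sided exact permutation tests.

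Same-numbered libraries deviated together from their group means (r from 0.16 to 0.48 in 18 of 18 pairs), so the numbers were taken to pair the libraries, from the data and not from the labels, and the fit with the replicate number as a block is given where it changes a call.

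The members and gene lists were chosen with earlier results of these data known. Named were all members, up to 4 genes of each pathway list with the largest change among those that passed, and the 3 genes most like each member that passed. One gene that this rule names is not reported here. Casp1 and the marker genes were named after their values were seen. Exon lengths and overlaps came from GENCODE and promoters from RefSeq (GRCm38.p6). Alternatives were other pseudocounts, filters and normalizations, fits without a trend or with only the libraries compared, the block, and leaving out each library.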

Additional observations from a re-analysis of the deposited data

Results flagged for a closer look

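For 3 members the effect of activin A differed with and without FST288 by the interaction test. The difference was 1.84 for Il1b (1.87 without FST288 and 0.04 with it), 0.49 for Osm (0.55 and 0.06) and −1.55 for Il10 (−1.57 and −0.02), all on the log2 scale. In each case the activin A effect was near 0 in the presence of FST288. The adjusted p was 0.048, 0.049 and 0.0030 by limma, and the cause was not tested.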

How the results depend on the processing

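Under 9 alternatives (8 for the interaction), Il1b, Tnf, Osm and Il10 kept their direction and their call between Act and CTRL, and Il1a kept them except with only the libraries compared (adjusted p = 0.0501 by limma). Leaving out single libraries gave 3 to 5 members that passed between Act and CTRL, the lowest without CTRL replicate 3, and 1 to 2 members that passed the interaction, of which 1 to 2 were DEGs. The interaction count was 5 with the replicate block and 1 without a trend, and the DEG count was 1 without a trend and 1 after quantile normalization. Il1b lost its interaction call after quantile normalization (adjusted p = 0.053) and without a trend (0.11). Osm lost its own without a filter (0.053), with recomputed TMM factors (0.052) and without a trend (0.081).

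Beside the calls given with their values in the results, the replicate block changed no other member's call.

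Reversals of direction occurred only for differences that did not pass. Osm between Act+FST and CTRL became −0.015 (log2) after quantile normalization and ran from −0.038 to 0.073 when libraries were left out. In those fits Il1rn ran from −0.0079 to 0.32 between Act and CTRL, Il1b from −0.32 to 0.53 and Il10 from −0.054 to 0.047 between Act+FST and FST, and Il1b from −0.52 to 0.32 between Act+FST and CTRL. Between FST and CTRL, Il1a ran from −0.28 to 0.039, Il1rn from −0.14 to 0.23, Tnf from −0.067 to 0.21 and Osm from −0.13 to 0.017, and the Il18 interaction ran from −0.067 to 0.041. The causes were not tested. Precision is limited by 3 libraries a group and an unknown read depth.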
